A study of Mus musculus with 59 samples.

Results

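The proteins of the mitochondrial ribosome were followed at the mRNA level in the brown adipose tissue (BAT) of 59 mice. Members were the genes whose symbol starts with Mrpl or Mrps and a number, without pseudogenes carrying -ps in the symbol, and with a mean raw count of 10 or more. Of 55341 listed genes, 83 matched the symbol, 5 of these were pseudogenes, and 77 of the other 78 reached the minimum. The gene left out was Mrpl53, with a mean count of 0.17. Just inside the minimum were Mrpl23, with a mean of 20.95, and Mrps18c, with a mean of 33.2.

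The mitochondrial ribosome, or mitoribosome, translates the few proteins that mitochondrial DNA encodes, all of them subunits of the respiratory chain and of ATP synthase. Its rRNAs are transcribed in the mitochondrion, but its proteins are encoded in the nucleus, made in the cytosol and imported. BAT is rich in mitochondria, whose respiration is turned into heat through the uncoupling protein Ucp1, and both cold and thyroid hormone (TH) act on this tissue.

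All mice were male, 8 to 12 weeks old and of the C57BL/6J background. In the first experiment, 30 mice received PTU, an inhibitor of TH synthesis, and were taken without TH or after TH. Here 4 wild-type (WT) mice per group were studied without TH and at 3, 6, 12 and 24 h after it, besides 5 BATKO mice without TH and 5 BATKO mice 24 h after it. In the second, control (CTRL) and BATKO mice were kept at 4 °C (3 CTRL and 4 BATKO, labelled 24 h in the files) or at 30 °C (4 CTRL and 5 BATKO). In the third, 4 CTRL and 3 BATKO mice received a high-fat diet (HFD), labelled 3.5 days in the files, and 4 CTRL and 2 BATKO mice received chow. The labels and the paper's text do not describe the BATKO allele, and mice without PTU were not analysed here in the first experiment.

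Between 7612059 and 18073627 reads were counted in each mouse, of which 39.2% to 55.7% came from mitochondrial DNA. The members took 19509 to 53455 counts per mouse. The summed normalized count of 5 brown adipocyte markers (Ucp1, Cidea, Adipoq, Fabp4 and Plin1) was between 61590 and 297900. This sum was not compared with other fat and does not tell brown from white adipocytes. The 5 lymphocyte markers together reached at most 48.3. Skeletal muscle markers varied from 4.34 to 82070 and exceeded 10000 in 10 mice, without which the counts of called members were computed again. Levels below are normalized counts, that is counts scaled by the TMM library size within each experiment, so that levels are not comparable between experiments. A member is said to have risen or fallen where edgeR's quasi-likelihood test gave a Benjamini-Hochberg adjusted p under 0.05 over all genes tested. In bulk tissue, a change in the share of cells of a type and a change in mRNA per cell cannot be told apart.

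The 77 members were 48 Mrpl and 29 Mrps genes on 17 chromosomes. By current assignments 50 belong to the large subunit, among them Mrps18a and Mrps30, and 26 to the small subunit, whereas Mrps36 is a component of the 2-oxoglutarate dehydrogenase complex. Proteins with a bacterial counterpart numbered 44 and mitochondrion-specific proteins 32. Exon bases were shared with a gene on the opposite strand by 27 members, and with one on the same strand by 7 members (Mrpl3, Mrpl33, Mrpl51, Mrps18c, Mrps24, Mrps34 and Mrps6). The strand setting of the counting was not stated, so that the reads of these members and of their neighbours may not be fully separated. Mrpl46 (chromosome 7, 78775236 to 78783531) and Mrps11 (chromosome 7, 78783119 to 78792989) share 173 exon bases on opposite strands and are such a pair.

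Per kilobase of exon, the members spanned a wide range of levels. In WT mice under PTU the median was 178.9 normalized counts per kb. Mrpl34, a small protein of the large subunit, was first with 1609 ± 219 (SD, n = 4), followed by Mrpl10 with 793 ± 55.6. At the other end, Mrpl23 had 1.51 ± 0.28 and Mrpl48 had 13.8 ± 0.72. Both levels are uncertain, because each gene has a pseudogene copy with more counts (Mrpl23-ps1, mean raw count 377.1 over the 59 mice, and Mrpl48-ps, 166.2, against 20.95 for Mrpl23 and 131.8 for Mrpl48). Mrpl34 was also first in CTRL mice at 30 °C, with 1467 ± 262, and on chow, with 1458 ± 128 normalized counts per kb. Its lowest mouse lay above the highest mouse of the next member in each of these 3 groups.

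The BATKO libraries of the TH experiment stood apart from the other 49 mice. Their members took 0.300% to 0.399% of the counts of nuclear genes, against 0.505% or more in every other mouse. Mrpl23 had 72 to 124 raw counts in these 10 mice and 0 to 13 in the other 49, where its mean was 6.14, so that it reached the minimum for members only through them. Mrps36 had 365 to 745 raw counts against 26 to 91. Its pseudogene Mrps36-ps2 was high in the same mice, with 177 to 401 counts against 9 to 74.

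Under PTU without TH, 21 of the 76 members other than Mrpl23 were more than 2-fold apart between BATKO and WT mice with no overlap, 7 higher and 14 lower in BATKO, beside 34.6% of all genes. Mrpl23 is left out of this count, as it became a member through these BATKO libraries. Mrps36 was 9.65-fold higher in BATKO, whereas Mrpl14 was 4.12-fold, Mrps17 3.88-fold and Mrps6 3.51-fold lower. At 30 °C, 0 of 76 members and 0.113% of all genes were so far apart between BATKO and CTRL mice, and on chow 0 of 76 members and 2.3% of all genes. In the TH experiment the genotype and the set of libraries cannot be told apart, and levels were therefore not tested between BATKO and WT mice there. The response to TH in WT mice was fitted over the WT mice alone, whereas that in BATKO mice and the difference of the responses come from a fit over all 30 mice, in which each response contrasts mice of 1 genotype.

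**Figure D1:**
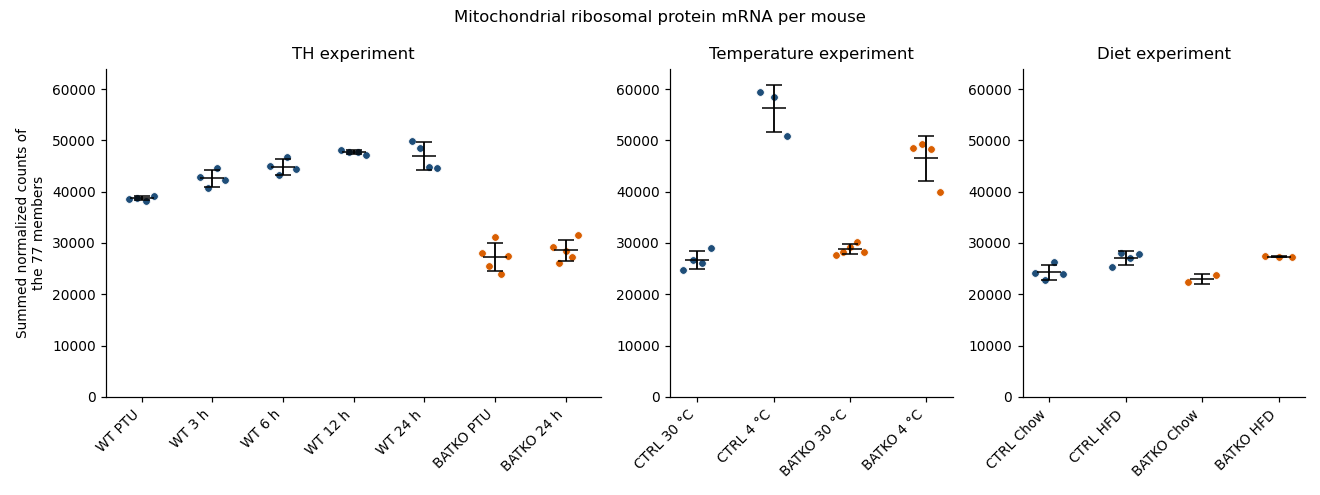
Summed normalized counts of the 77 members in every mouse, by group and experiment. Points are mice (blue, WT or CTRL; orange, BATKO), and bars show the mean and SD. The 4 WT mice taken 12 h after TH lie above all WT mice under PTU alone, and the CTRL and BATKO mice at 4 °C lie above all mice at 30 °C.

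The summed count of the members was higher after TH in WT mice. It was 38240 to 39250 under PTU, 40670 to 44580 at 3 h, 43160 to 46830 at 6 h, 47160 to 48160 at 12 h and 44630 to 49820 at 24 h. No WT mouse after TH overlapped with the WT mice under PTU alone. In BATKO mice the sum was 23920 to 31100 under PTU and 26170 to 31530 at 24 h after TH, and the groups overlapped. These sums are given as levels, with no test.

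Individual members followed from 3 h on. At 3 h, 8 of 76 members tested rose, beside 5.1% of all genes, and 0 fell, beside 4.09%. At an unadjusted p under 0.05, 1 member was lower at 3 h, and DESeq2 called 9 members in all. Leaving out 1 mouse gave 2 to 10 called members at 3 h, with 2 without WT mouse B2 or B3 under PTU or B9 after TH, 3 without B11, 4 without B5 and 5 without B8. At 6 h, 20 members rose (12.1% of all genes) and 3 fell (10.9%), 23 in all, against 14 to 25 with 1 mouse left out, 14 without B15 and 15 without B2. At 12 h, 31 rose (13.6%) and 1 fell (12.1%). At 24 h, 35 rose (17.2%) and 3 fell (15.5%). The median log2 fold change of the members was 0.11, 0.21, 0.28 and 0.26 at these times, against 0.01, -0.00, -0.02 and 0.01 over all genes tested. The rises were moderate, as the 35 members called at 24 h were 1.19- to 2.00-fold higher than under PTU.

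Across the time course, 40 members rose at 1 time point or more, beside 23.99% of all genes tested, and 32 were called at none, beside 53.09%. The 7 members that rose at every time point, beside 3.15% of all genes, were Mrpl4, Mrpl12, Mrpl36 and Mrpl55 of the large subunit and Mrps2, Mrps23 and Mrps34 of the small subunit. At 3 h, Mrps2 alone of these kept its call in all 8 fits that left out 1 mouse, whereas Mrpl4, Mrpl12 and Mrps34 lost it in 5 fits, Mrpl55 in 4, Mrps23 in 3 and Mrpl36 in 2. Of the members that rose at 12 h, 28 also rose at 24 h, and 5 (Mrpl28, Mrpl57, Mrpl58, Mrps10 and Mrps11) rose at 24 h and at no earlier time. Mrpl58 acts as a peptidyl-tRNA hydrolase that releases stalled chains. Both subunits took part at 24 h, with 22 risen and 1 fallen of 49 large-subunit members tested and 12 risen and 2 fallen of 26 small-subunit members.

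Mrpl34 (chromosome 8, 71464959 to 71465747) had 817, 917, 1078 and 1094 normalized counts in the WT mice under PTU and 2041, 1813, 2052 and 1936 at 24 h. The groups did not overlap, and it was the only member 2-fold higher or more (log2 fold change 1.00, SE 0.12, edgeR adjusted p = 2.23e-06). Mrpl12 (chromosome 11, 120484613 to 120489065), the stalk protein that recruits translation factors to the ribosome, had 441, 407, 519 and 548 under PTU and 884, 1060, 996 and 848 at 24 h. Again every mouse after TH lay above those under PTU (0.98, SE 0.12, edgeR adjusted p = 2.17e-06). Mrps23 (chromosome 11, 88204388 to 88211507), a mitochondrion-specific protein of the small subunit, had 461, 370, 479 and 440 against 689, 768, 984 and 763, also without overlap (0.87, SE 0.13, edgeR adjusted p = 3.03e-05).

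Mrpl36, whose bacterial counterpart binds the large rRNA, had 486, 517, 536 and 549 under PTU and 751, 814, 966 and 863 at 24 h, with no overlap (0.70, SE 0.12, edgeR adjusted p = 1.05e-04). Mrps2 rose early, from 1444 to 1661 under PTU to 2025 to 2186 at 3 h and 2341 to 2606 at 24 h, and the groups were separate at both times (0.41 and 0.68 on the log2 scale, edgeR adjusted p = 0.00316 and 2.68e-06). Mrpl4 and Mrpl15 were highest at 6 h among the 4 times, with log2 fold changes of 0.82 (SE 0.16) and 0.69 (SE 0.09), against 0.59 and 0.45 at 24 h. Mrpl15 was nearly as high at 12 h. With 1 mouse left out it was at 0.64 to 0.72 at 6 h and 0.62 to 0.71 at 12 h. Mrpl55, Mrps27, Mrpl38, Mrpl20, Mrps5 and Mrps36 rose by 0.63 to 0.77 on the log2 scale at 24 h.

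The members that fell numbered 4. Mrps6 (chromosome 16, 92058270 to 92112227), whose bacterial counterpart pairs with that of Mrps18c in the small subunit, had 810, 727, 735 and 729 under PTU and 473, 473, 404 and 461 at 24 h. It fell at 6, 12 and 24 h, by 0.46, 0.68 and 0.73 on the log2 scale (edgeR adjusted p = 0.00362, 7.55e-05 and 2.57e-05), and the groups at 24 h did not overlap. Its exons share 464 bases with genes on the same strand, Slc5a3 and Gm49711. Mrps18c had 26.1, 41.9, 29.9 and 34.6 under PTU and 26.2, 18.8, 14.6 and 20.7 at 24 h, where the groups overlapped in 1 mouse each (-0.72, SE 0.21, edgeR adjusted p = 0.0115). Mrpl33 also overlapped between the groups at 24 h (-0.52, SE 0.17, edgeR adjusted p = 0.0222), and Mrpl50 was lower at 6 h alone among the calls (-0.54, SE 0.17). In fits that left out 1 mouse, the calls of Mrpl50 and Mrpl33 at 6 h were lost in 4 of 8 each, and those at 24 h in 4 of 8 for Mrpl33 and in 1 for Mrps18c.

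**Figure D2:**
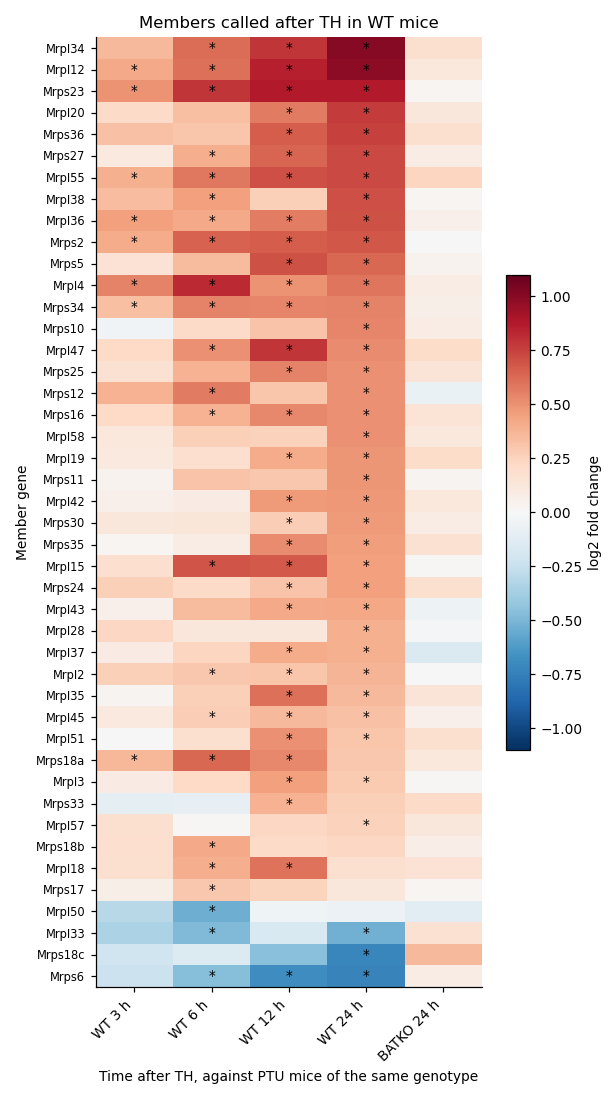
Log2 fold change after TH against PTU mice of the same genotype for the 44 members called at 1 WT time point or more, ordered by the change at 24 h. Asterisks mark an adjusted p under 0.05 (edgeR). Mrpl34, Mrpl12 and Mrps23 stand at the top, Mrps6 and Mrps18c at the bottom, and the BATKO column carries no asterisk.

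The start regions of the members with the largest rises, of Mrpl36, called after TH and on HFD, and of the 3 members that fell at 24 h are printed so that the letters before members that rose and members that fell can be read side by side. Each window runs from 250 bases before to 50 bases after a RefSeq transcription start (GRCm38.p6, plus strand). They lie at chr8:71464676-71464975 (Mrpl34), chr11:120484387-120484686 (Mrpl12), chr11:88204138-88204437 (Mrps23), chr13:73330759-73331058 (Mrpl36), chr16:92058086-92058385 (Mrps6), chr5:100798509-100798808 (Mrps18c) and chr5:31613701-31614000 (Mrpl33). Capitals mark matches, on either strand, to the core of the ETS factors that include GABP (CCGGAAG), the core of YY1 (AAGATGGC), the core of NRF1 (GCATGCGC) and the half-site of nuclear receptors such as the TH receptor (AGGTCA), also where they stand as reverse complements.
Mrpl34: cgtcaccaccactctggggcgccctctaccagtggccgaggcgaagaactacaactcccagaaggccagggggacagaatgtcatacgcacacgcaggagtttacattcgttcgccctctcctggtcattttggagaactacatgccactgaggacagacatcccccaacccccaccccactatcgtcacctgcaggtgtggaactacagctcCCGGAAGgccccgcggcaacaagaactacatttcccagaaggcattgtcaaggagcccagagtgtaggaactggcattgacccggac
Mrpl12: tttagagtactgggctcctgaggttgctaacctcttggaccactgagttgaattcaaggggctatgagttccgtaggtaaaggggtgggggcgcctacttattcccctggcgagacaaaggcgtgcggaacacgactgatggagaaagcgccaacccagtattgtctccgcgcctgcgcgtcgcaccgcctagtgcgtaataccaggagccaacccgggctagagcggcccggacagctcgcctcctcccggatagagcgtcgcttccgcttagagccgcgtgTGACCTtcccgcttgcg
Mrps23: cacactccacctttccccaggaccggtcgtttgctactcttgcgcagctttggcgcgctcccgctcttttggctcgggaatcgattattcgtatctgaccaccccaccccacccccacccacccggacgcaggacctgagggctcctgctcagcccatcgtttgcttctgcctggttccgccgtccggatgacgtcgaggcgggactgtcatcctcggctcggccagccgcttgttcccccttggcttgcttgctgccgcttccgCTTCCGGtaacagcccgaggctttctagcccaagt
Mrpl36: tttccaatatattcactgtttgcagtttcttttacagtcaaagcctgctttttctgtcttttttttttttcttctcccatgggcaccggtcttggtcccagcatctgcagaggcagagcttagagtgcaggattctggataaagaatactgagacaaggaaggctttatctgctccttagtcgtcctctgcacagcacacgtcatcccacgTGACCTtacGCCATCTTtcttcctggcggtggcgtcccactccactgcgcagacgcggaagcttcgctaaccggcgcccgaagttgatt
Mrps6: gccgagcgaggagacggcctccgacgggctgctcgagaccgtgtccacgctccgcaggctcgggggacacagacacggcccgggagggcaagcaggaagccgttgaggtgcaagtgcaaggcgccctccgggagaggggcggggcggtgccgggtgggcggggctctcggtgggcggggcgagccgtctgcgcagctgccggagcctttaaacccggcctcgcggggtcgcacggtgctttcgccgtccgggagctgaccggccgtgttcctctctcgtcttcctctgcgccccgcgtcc
Mrps18c: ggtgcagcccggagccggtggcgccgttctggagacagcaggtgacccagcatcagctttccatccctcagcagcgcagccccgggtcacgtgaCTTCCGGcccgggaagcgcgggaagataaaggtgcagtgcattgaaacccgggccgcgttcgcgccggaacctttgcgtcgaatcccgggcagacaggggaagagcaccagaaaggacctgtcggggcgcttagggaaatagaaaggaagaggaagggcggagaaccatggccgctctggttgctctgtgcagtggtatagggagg
Mrpl33: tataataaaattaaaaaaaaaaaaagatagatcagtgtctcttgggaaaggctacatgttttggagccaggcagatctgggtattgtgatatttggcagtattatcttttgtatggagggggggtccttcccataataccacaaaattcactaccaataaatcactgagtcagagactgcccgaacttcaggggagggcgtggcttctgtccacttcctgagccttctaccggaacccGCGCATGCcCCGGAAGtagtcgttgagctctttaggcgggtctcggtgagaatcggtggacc

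A promoter was found in the RefSeq table for 68 of the 77 members, with 74 windows, and 9 members (Mrpl4, Mrpl13, Mrpl15, Mrpl19, Mrpl38, Mrpl54, Mrps28, Mrps34 and Mrps35) had none there. The ETS core was present in 33.78% of the member windows, against 8.86% of all 32851 windows. The YY1 core was present in 16.22% against 2.75%, and the NRF1 core in 10.81% against 2.71%. At least 1 of the 3 was found in 37 of 74 member windows, against 13.3% of all windows. The receptor half-site was found in 13.51% of member windows and in 16.26% of all windows. A pair of half-sites in the same direction with a spacer of 4 bases was found in 0 member windows and 0.015% of all. With only 5 such windows among all 32851, finding 0 among 74 says nothing about the members. Inexact pairs and bases outside the windows were not searched. The ETS core occurred in windows of members that rose (Mrpl34 and Mrps23) and of members that fell (Mrps18c and Mrpl33), while the Mrps6 window held none of these letters. The matches are descriptions of these windows and were not tested.

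In BATKO mice 24 h after TH, 0 of 77 members were called by edgeR, beside 0% of all genes. The 77 include Mrpl23, which became a member through the BATKO libraries of this experiment. At an unadjusted p under 0.05 there were 2 members, beside 4.75% of all genes, and DESeq2 called 0. The median log2 fold change of the members was 0.08, and between 0.02, without the mouse numbered 15 at 24 h, and 0.13, without the mouse numbered 4 under PTU, when 1 mouse was left out. Mrpl34 had 547, 496, 677, 449 and 550 normalized counts under PTU and 670, 652, 599, 546 and 605 after TH, and the groups overlapped (0.18, SE 0.11). Mrpl12 changed by 0.12 (SE 0.11), Mrps23 by 0.02 (SE 0.13) and Mrps6 by 0.08 (SE 0.11) on the log2 scale. Of the 2 members with the lowest p, Mrpl30 was at 0.20 (SE 0.08) and Mrps18c at 0.35 (SE 0.16), each with an edgeR adjusted p of 0.963.

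The TH response was compared between the genotypes by an interaction term over the 30 mice. It was lower in BATKO for 12 of 77 members (7.15% of all genes) and higher for 3 (5.12%). The median was -0.17 over the members and -0.02 over all genes. The 77 include Mrpl23, which became a member through these BATKO libraries and is not among the calls. Leaving out 1 mouse moved the members' median between -0.22 and -0.10, the latter without the BATKO mouse numbered 4 under PTU. The 3 higher ones were Mrps6, Mrps18c and Mrpl33. The interaction shares its WT mice with the 24 h comparison above, and its direction is therefore not independent of the changes in WT mice. The difference was -0.86 (SE 0.17) for Mrpl12, -0.85 (SE 0.19) for Mrps23 and -0.83 (SE 0.16) for Mrpl34 on the log2 scale (edgeR adjusted p = 0.00116, 0.00431 and 0.0013). It was 0.81 (SE 0.16) for Mrps6 and 1.07 (SE 0.27) for Mrps18c (edgeR adjusted p = 0.00127 and 0.00794). Of the 15 calls, those of Mrps27, Mrpl15, Mrpl33, Mrpl37 and Mrps34 were lost in 10, 9, 9, 3 and 1 of 18 fits that left out 1 mouse. As a check of the treatment, Hr, a direct TH target, differed in the same way, with log2 fold changes of 4.57 (SE 0.31) in WT and 0.50 (SE 0.39) in BATKO mice. The WT and BATKO mice compared here are the sets of libraries that stood apart in their levels, and the part of this in the difference of the responses was not tested.

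**Figure D3:**
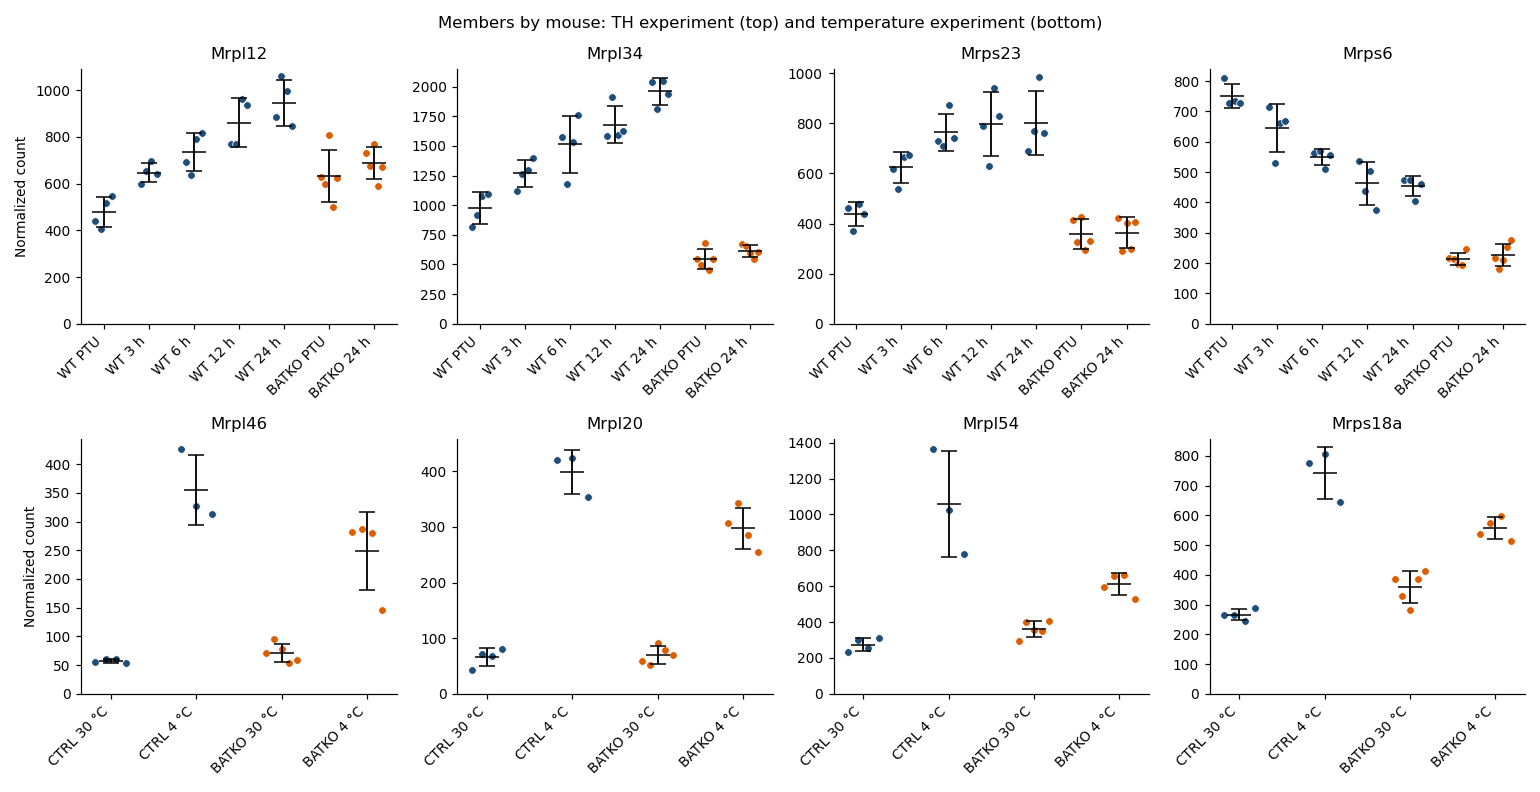
Normalized counts of 8 members in every mouse, with Mrpl12, Mrpl34, Mrps23 and Mrps6 in the TH experiment (top) and Mrpl46, Mrpl20, Mrpl54 and Mrps18a in the temperature experiment (bottom). Points are mice (blue, WT or CTRL; orange, BATKO), and bars show the mean and SD. The WT mice at 24 h after TH lie above or, for Mrps6, below all WT mice under PTU, and all mice at 4 °C lie above those of the same genotype at 30 °C.

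Other genes of mitochondrial translation also rose in WT mice at 24 h. Of 15 mitochondrial translation factors 7 rose, among them the elongation factors Tufm (0.73 on the log2 scale) and Gfm1 (0.67). Of 21 assembly factors 8 rose, with Mettl17 at 0.91. Of 16 mitochondrial aminoacyl-tRNA synthetases 5 rose and 1 fell, and of 5 mitoribosomal proteins with other symbols 2 rose. The rRNAs mt-Rnr1 and mt-Rnr2 were at -0.26 (SE 0.31) and 0.01 (SE 0.28) and were not called. Of 36 nuclear subunits of complex I 13 rose, and of 81 cytosolic ribosomal proteins tested 9 rose and 3 fell. The other genes of these lists were not called. The counts are set beside 17.2% of all genes risen and 15.5% fallen in the same comparison.

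Of the other markers, 5 of 5 skeletal muscle markers were above 0 at 24 h against PTU, with a median log2 fold change of 1.09 and 0 called by edgeR. Their sum was 734 to 7288 under PTU and 3029 to 12990 at 24 h. Without the mice above 10000, 35 members were called at 24 h, against 38, with a median log2 fold change of 0.24, against 0.26. At 6 h 15 were called, against 23, with a median of 0.22, against 0.21. Of 5 brown adipocyte markers, 1 (Ucp1) rose and 4 fell at 24 h, and their sums under PTU and at 24 h, 182600 to 204600 and 158700 to 249800, overlapped. Their sum was 197200 to 259600 at 3 h and 199300 to 283900 at 12 h, which overlapped with PTU, and 228400 to 265000 at 6 h, where all mice lay above those under PTU. The sum of 4 endothelial markers was 3993 to 4268 under PTU, 4405 to 4626 at 3 h, 3039 to 3869 at 12 h and 3833 to 4285 at 24 h, so that the mice at 3 h lay above and those at 12 h below the mice under PTU. The part of the brown adipocyte and endothelial markers in the members' changes was not tested.

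In the cold most members rose. In CTRL mice, 68 of 76 members rose at 4 °C against 30 °C, beside 26.5% of all genes, and 0 fell, beside 22.6%. At an unadjusted p under 0.05, 0 were lower, and DESeq2 also called 68 members. The median log2 fold change was 1.01, which is 2.02-fold, against -0.01 over all genes. Called and 2-fold higher or more were 38 members, beside 13.1% of all genes. The summed count was 24770 to 29080 at 30 °C and 50870 to 59340 at 4 °C, and the ranges did not overlap.

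Mrpl46, a mitochondrion-specific protein of the large subunit, had 55.6, 60.9, 60.5 and 52.8 normalized counts at 30 °C and 426, 327 and 313 at 4 °C. This was the largest rise, with no overlap (2.62, SE 0.23, edgeR adjusted p = 2.71e-07), and Mrps11, which shares exon bases with it, rose by 1.82 (SE 0.24). Mrpl20, whose bacterial counterpart binds the large rRNA early in assembly, had 43.4, 71.3, 67.8 and 81.3 at 30 °C and 420, 425 and 354 at 4 °C. The groups were far apart (2.60, SE 0.20, edgeR adjusted p = 1.09e-07). Mrps23 rose by 2.17 (SE 0.16) and Mrps2 by 2.14 (SE 0.17), the largest rises among the small-subunit members.

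All 49 large-subunit members tested rose in CTRL mice, as did 19 of 26 small-subunit members. Mrps36 was not called (0.38, SE 0.23), nor were Mrps18b (0.52, SE 0.44) and Mrps18c (0.36, SE 0.44), paralogs of Mrps18a, which rose by 1.48 (SE 0.13). Mrpl58 rose by 1.58 (SE 0.15), Mrps12, which lies at the decoding centre, by 1.13 (SE 0.18) and the stalk proteins Mrpl10 and Mrpl12 by 0.91 (SE 0.18) and 1.76 (SE 0.17). At the lower end of the called members named here, Mrps30 rose by 0.51 (SE 0.17, edgeR adjusted p = 0.0242), a call that was lost in 5 of 7 fits leaving out 1 mouse.

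In BATKO mice, 62 of 76 members rose in the cold (21.4% of all genes) and 0 fell (18.9%), with 0 lower at an unadjusted p under 0.05 and DESeq2 also calling 62. The median log2 fold change was 0.66, or 1.58-fold, and 16 members were called and 2-fold higher or more, beside 6.87% of all genes. Mrpl46 had 71.6, 94.8, 77.6, 54.1 and 58.9 at 30 °C and 281, 287, 279 and 146 at 4 °C, with no overlap (1.80, SE 0.20). Mrpl20 rose by 2.08 (SE 0.18), the largest value in this genotype, followed by Mrps22 with 1.83 (SE 0.23). Mrpl19 (1.25, SE 0.14) and Mrpl1 (1.15, SE 0.20) were also among the 12 largest.

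The members that rose in both genotypes numbered 60, beside 17.37% of all genes tested. Another 8 were called in CTRL mice only by these tests and 2, Mrps31 and Mrps33, in BATKO mice only, which is no test of a difference. Mrps6, Mrps9, Mrps15, Mrps18b, Mrps18c and Mrps36 were called in neither. By subunit, 42 of 49 large-subunit and 20 of 26 small-subunit members rose in BATKO mice.

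**Figure D4:**
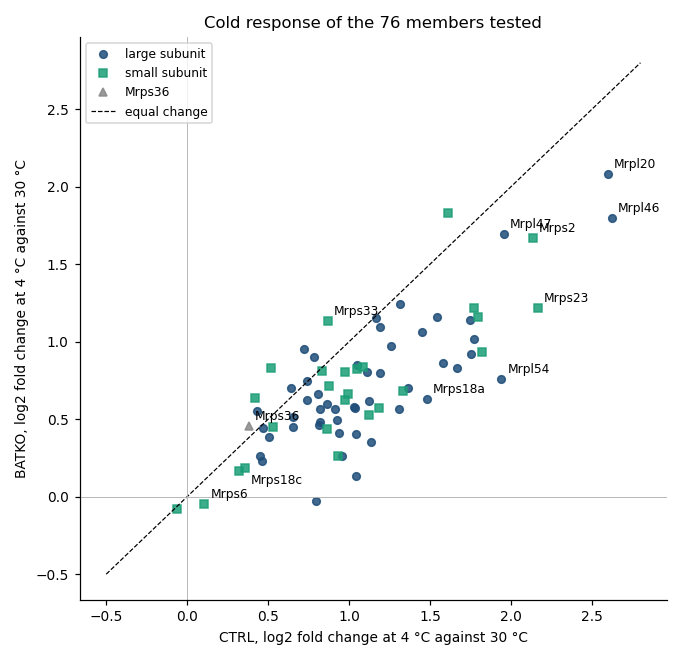
Log2 fold change at 4 °C against 30 °C of the 76 members tested, in CTRL mice (x axis) and BATKO mice (y axis). Circles are large-subunit members, squares small-subunit members, the triangle is Mrps36, and the dashed line marks equal change. Of the 76 members, 66 lie below the line, and Mrpl46 and Mrpl20 are farthest to the right.

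The cold response was lower in BATKO than in CTRL mice for 66 of 76 members by log2 fold change, with a median difference of -0.33 (interaction term). Of all 13267 genes tested, 51.78% were lower in this way, with a median of -0.02. These differences share all their mice and are not independent of each other. They also share the CTRL mice with the cold comparison above, so their direction is not independent of the rises in CTRL mice. No share was computed over only the genes that rose in the cold. By edgeR, 3 members passed the test, all lower in BATKO (0.807% of all genes), and 0 were higher (0.317%). At an unadjusted p under 0.05 there were 27 members, all lower, beside 18.63% of all genes in either direction, and DESeq2 called 13 members and 656 of 13267 genes. Mrpl54, a mitochondrion-specific protein of the large subunit, had 234, 297, 258 and 311 normalized counts in CTRL mice at 30 °C and 1366, 1023 and 778 at 4 °C. In BATKO mice it had 292, 398, 356, 353 and 404 at 30 °C and 594, 656, 663 and 530 at 4 °C. Its response was smaller in BATKO (-1.18, SE 0.23, edgeR adjusted p = 0.0293), and so was that of Mrps23 (-0.95, SE 0.20, edgeR adjusted p = 0.0367) and of Mrps18a (-0.85, SE 0.18, edgeR adjusted p = 0.0352).

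These 3 calls were not stable to single mice. The number of members called was between 0 and 19 when 1 mouse was left out, with 19 without CTRL mouse 5 at 4 °C, 5 without BATKO mouse 13 at 30 °C, 1 without BATKO mouse 8 at 4 °C, and 0 without CTRL mouse 1 or 2 or BATKO mouse 7 or 12 at 4 °C, and without CTRL mouse 19, 20 or 21 or BATKO mouse 14, 16 or 17 at 30 °C. It was also 0 without the mice high in muscle markers.

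The levels themselves were compared next. At 4 °C, 1 of 76 members, Mrpl54, was lower in BATKO than in CTRL mice (-0.79, SE 0.17, edgeR adjusted p = 0.0263), beside 1.2% of all genes lower and 0.957% higher. The median difference was -0.27, and 26 members were lower at an unadjusted p under 0.05, beside 16.54% of all genes in either direction, while DESeq2 called 10 members and 650 of 13267 genes. Left-out mice moved the count between 0 and 15, with 15 without CTRL mouse 5, 3 without BATKO mouse 11, and 0 without CTRL mouse 1 or 2 or BATKO mouse 7 or 12. The sum of 4 fibroblast markers at 4 °C was 3114 to 6022 in BATKO and 2870 to 3048 in CTRL mice, without overlap, whereas the sums of the other 6 marker lists overlapped. The part of the fibroblast markers in the difference was not tested. At 30 °C, 0 of 76 members were called between the genotypes by edgeR (0.00754% of all genes) and 0 by DESeq2. At an unadjusted p under 0.05 there were 12, beside 9.11% of all genes. The median difference was 0.12, and 0.06 without the mice high in muscle markers. Mrps23 was at 0.46 (SE 0.14) and Mrps18a at 0.44 (SE 0.12) in that comparison, each with an edgeR adjusted p of 0.542.

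The rRNAs of the mitoribosome rose with its proteins in the cold. In CTRL mice mt-Rnr1, the rRNA of the small subunit, had 55520, 65920, 79810 and 122100 normalized counts at 30 °C and 674200, 598000 and 669800 at 4 °C. In BATKO mice it had 52550 to 97810 at 30 °C and 190500 to 237800 at 4 °C. The groups were separate in both genotypes, with log2 fold changes of 3.00 (SE 0.26) and 1.65 (SE 0.22). For mt-Rnr2, the rRNA of the large subunit, they were 2.61 (SE 0.25) and 1.75 (SE 0.21). Both rRNAs were lower in BATKO mice at 4 °C (mt-Rnr1 -1.55, SE 0.25, and mt-Rnr2 -1.06, SE 0.24, edgeR adjusted p = 0.00704 and 0.0324), a call that mt-Rnr2 lost in 5 of 7 fits leaving out 1 mouse. The difference between their cold responses was not called (mt-Rnr1 -1.36, SE 0.33, and mt-Rnr2 -0.86, SE 0.32). The share of all counts from mitochondrial DNA overlapped between the temperatures. In CTRL mice it was 45.6% to 54.6% at 30 °C and 46.4% to 55.3% at 4 °C. For BATKO mice it was 39.2% to 50.8% and 42.9% to 51.2%. The libraries came from a total RNA kit, and the part of library making in the rRNA counts was not tested.

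The other lists of mitochondrial translation are set beside 26.5% of all genes risen and 22.6% fallen in CTRL mice and 21.4% and 18.9% in BATKO mice. In CTRL mice 12 of 15 translation factors rose and 1, Mtfmt, which formylates the initiator tRNA, fell, and in BATKO mice 12 rose. Assembly factors rose in 13 of 21 cases with 1 fall (Mettl15) in CTRL and in 9 cases in BATKO mice. Of the 16 synthetases 12 rose in CTRL and 10 in BATKO mice, and of the 5 mitoribosomal proteins with other symbols 3 rose in each. Complex I subunits rose in 32 of 36 cases in CTRL and in 26 in BATKO mice. Of 84 cytosolic ribosomal proteins, 9 rose and 18 fell in CTRL mice, where 18 is 21.43%, close to the share of all genes, and 6 rose and 4 fell in BATKO mice.

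Of 9 regulators of nuclear genes for mitochondrial proteins, 5 rose and 1, Myc, fell in CTRL mice in the cold. Ppargc1a, a coactivator of mitochondrial biogenesis, rose by 2.57 (SE 0.35) in CTRL and by 1.19 (SE 0.30) in BATKO mice. Esrra, a nuclear receptor that acts with it, rose by 1.96 (SE 0.21) and 0.84 (SE 0.18). Both were lower in BATKO than in CTRL mice at 4 °C (Ppargc1a -1.65, SE 0.34, and Esrra -0.80, SE 0.20, edgeR adjusted p = 0.022 and 0.0492). As a check of the cold exposure, Ucp1 was 4.40 (SE 0.52) and 3.43 (SE 0.44) higher on the log2 scale in CTRL and BATKO mice, and both changes passed the test.

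Markers of other cells moved with the cold as well. The sum of 4 erythrocyte markers was 1900 to 3565 at 30 °C and 8220 to 18350 at 4 °C in CTRL mice, and 1939 to 5305 and 8270 to 11910 in BATKO mice, with 2 of 4 markers called in each genotype. The 5 brown adipocyte markers, which include Ucp1, summed to 61740 to 76750 at 30 °C and 256500 to 297900 at 4 °C in CTRL mice, and 4 of them rose and 1 fell. In BATKO mice they summed to 61590 to 74780 and 178000 to 269400, also without overlap, and 4 rose. Skeletal muscle markers were lower in the cold in 5 of 5 cases without a call, with sums of 4.34 to 46160 and 1371 to 6125. Without the mice above 10000, 62 members were called in CTRL mice, against 68, and the median log2 fold change was 1.01 in both fits. In BATKO mice, where 2 mice at 4 °C and 3 at 30 °C were left, 28 were called, against 62, with a median of 0.56, against 0.66. In CTRL mice, 3 further sums were lower at 4 °C than at 30 °C without overlap, those of fibroblast (2870 to 3048 against 3918 to 5465), macrophage (393 to 474 against 485 to 900.0) and lymphocyte markers (6.68 to 12.3 against 17.96 to 42.53), whereas in BATKO mice each of these overlapped. The part of the other markers in the members' rise was not tested.

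Of the 35 members called up by TH at 24 h in WT mice, 34 were also called up in the cold in CTRL mice, the exception being Mrps36, beside 48.35% of the 2184 genes up after TH. Of the 41 other members, 34 were called up in the cold as well, beside 23.23% of the 10357 other genes tested in both, so that nearly all members rose in the cold whether or not they were called after TH. The order was alike in part, as the log2 fold changes of the 76 members correlated with r = 0.468 (Spearman's rho 0.451) across members, which share libraries within each experiment and are not independent. Mrpl12, Mrps2 and Mrps23 were high in both. Mrpl34 was first after TH, whereas Mrpl46 was first in the cold, and Mrps6, which fell after TH, was not called in the cold.

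**Figure D5:**
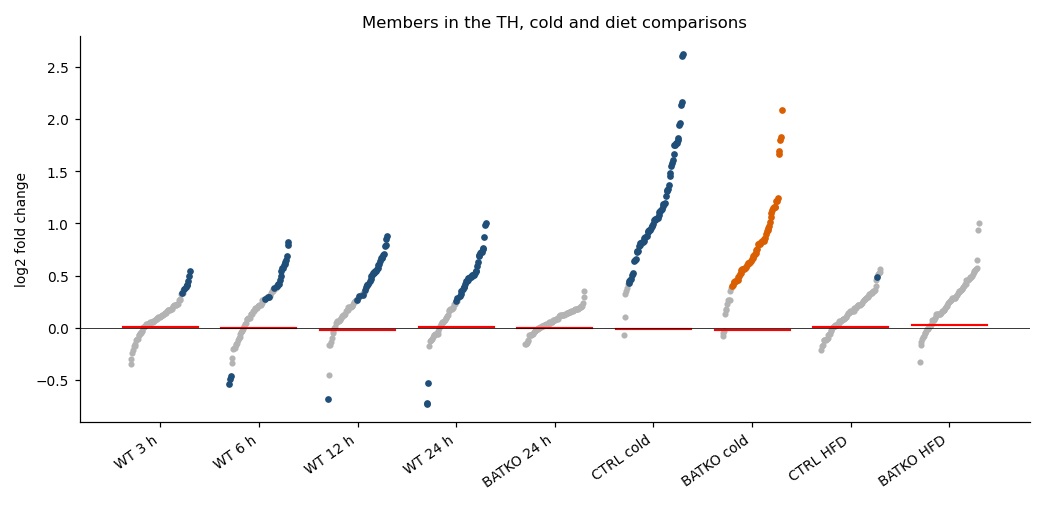
Log2 fold change of every member tested in 9 comparisons, sorted within each. Coloured points passed the test (blue in WT or CTRL, orange in BATKO mice), grey points did not, and red lines mark the median of all genes. The cold comparisons reach highest, with 68 and 62 members risen, and BATKO mice after TH or on HFD show no coloured point.

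In CTRL mice 1 of 76 members rose on HFD (1.89% of all genes) and 0 fell (2.04%), with 17 higher at an unadjusted p under 0.05, beside 21.67% of all genes in either direction, and 6 members and 872 of 12932 genes called by DESeq2. The member was Mrpl36, with 318, 339, 390 and 326 normalized counts on chow and 389, 456, 543 and 542 on HFD, groups that overlapped in 1 mouse each (0.49, SE 0.12, edgeR adjusted p = 0.0315). The call was lost in 5 of 8 fits that left out 1 mouse, and the number of called members ranged from 0 to 5 over them. It was 5 without CTRL mouse 3 on chow, 3 without CTRL mouse 7 on HFD, and 0 without CTRL mouse 1, 2 or 4 on chow or 10 or 11 on HFD. Mrpl12 (0.52, SE 0.16) and Mrps2 (0.46, SE 0.14) had edgeR adjusted p-values of 0.0738 and 0.0771. The median over the members was 0.16. Without the 2 chow mice above 10000 in muscle markers, 7 members were called, with a median of 0.23. Marker sums that did not overlap between chow and HFD in CTRL mice were those of fibroblasts (3206 to 5111 and 5193 to 7350), macrophages (368 to 391 and 540 to 1514) and lymphocytes (12.8 to 25.5 and 3.30 to 7.78), and their part in the members' values was not tested.

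In BATKO mice on HFD against chow, 0 of 76 members were called by edgeR, beside 0.0696% of all genes, with 18 at an unadjusted p under 0.05, beside 15.43% of all genes, and 1 member and 226 of 12932 genes called by DESeq2. Mrps12 had 58.4 and 69.5 normalized counts on chow and 137, 122 and 127 on HFD, and the groups did not overlap (1.00, SE 0.20, edgeR adjusted p = 0.083). The median over the members was 0.25. In these BATKO mice 4 marker sums did not overlap between chow and HFD. Fibroblast markers summed to 7085 to 7173 on chow and 5688 to 6865 on HFD, and macrophage markers to 946 to 1201 and 372 to 877. Brown adipocyte markers summed to 71730 to 82950 and 89260 to 98950, and erythrocyte markers to 3890 to 4175 and 4999 to 10240. Their part in the difference was not tested. Between the genotypes, 0 members were called on HFD, on chow and for the diet response, beside 0% of all genes in each of these 3 comparisons. At an unadjusted p under 0.05 there were 1, 2 and 2 members, beside 5.34%, 7.92% and 5.72% of all genes, and DESeq2 called 0 in each. The median differences were 0.04, -0.06 and 0.09 on the log2 scale. Leaving out 1 mouse moved them to between -0.0024 and 0.0642 on HFD, below 0 without CTRL mouse 7, between -0.1149 and -0.0172 on chow, and between 0.0299 and 0.1516 for the diet response, the values nearest to 0 of the last 2 being those without BATKO mouse 5 on chow. Without the mice high in muscle markers, these 3 median differences were 0.04, -0.0053 and 0.012. Mrps10 was at 0.77 in the diet response (SE 0.25, edgeR adjusted p = 0.73).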

How the data were processed

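RNA of 59 BAT samples was extracted with Trizol, and libraries were made with a total RNA kit. The authors deposited raw counts per gene, made by alignment with Bowtie (the submitters' notes list Bowtie2 2.3.2.2) to GRCm38 and counting with htseqcount; the annotation and the strand setting were not given in the sources used here. All columns were matched to mice by the labels (0 left unmatched). Genes were placed with GENCODE M21, where 55327 of 55341 symbols were found. The other 14 were symbols turned into dates.

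Counts were fitted in R 4.3.3 with edgeR 4.0.16 (TMM, quasi-likelihood test, Benjamini-Hochberg adjustment over all genes with a mean normalized count above 10), one fit per experiment, except the WT time course, fitted over the WT mice alone. The code was tested on simulated data. limma 3.58.1 was loaded by edgeR, and DESeq2 1.42.0, named in the submitters' notes, served as an alternative. Alternatives were RLE size factors, TMM on nuclear genes only, no filter or a minimum of 50, only the groups compared, leaving out each mouse, and, chosen after seeing the data, leaving out the mice with a summed normalized count of 5 skeletal muscle markers above 10000. Nothing states that the mice of a group came from separate litters or cages, so p-values measure the spread between these samples.

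The members, gene lists and tests were chosen with earlier results of these data known. Named in the text are up to 12 called members with the largest rise and 12 with the largest fall per comparison, or the 5 with the lowest p where fewer than 5 were called, members of known role, and those a count of 5 or fewer rests on. Marker lists covered brown adipocytes, skeletal muscle, erythrocytes and lymphocytes, given beside the results, and macrophages, endothelial cells and fibroblasts, whose summed normalized counts were 196 to 1514, 3039 to 7540 and 2086 to 7350.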

Additional observations from a re-analysis of the deposited data

Results flagged for a closer look

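For 16 of 248 combinations of a named member and a group of 4 to 10 mice, the gap between the highest or lowest mouse and the next, as a share of the range of the group, exceeded Dixon's limit, which chance does for about 1 in 20 groups, or 12.4 here. In WT mice under PTU this was Mrps6 (0.901), where mouse B2 had 810 normalized counts and the others 727 to 735. After TH it was Mrps18a at 3 h (0.83, mouse B7 low), Mrps2 at 6 h (0.883, B13 low), Mrpl34 at 12 h (0.878, B20 high), Mrpl47 at 12 h (0.902, B19 high), Mrps2 at 24 h (0.843, B26 low) and Mrps18a at 24 h (0.975, B27 high). BATKO mouse 12 at 4 °C was low for Mrpl46 (0.944, with 146 against 279 to 287 normalized counts), for Mrpl43 (0.94, 469 against 674 to 687) and for Mrps5 (0.905, 225 against 409 to 429). BATKO mouse 13 at 30 °C was high for Mrpl19 (0.751). In CTRL mice at 30 °C it was Mrpl38 (0.911, mouse 22 high), Mrpl55 (0.868, 19 low), Mrps12 (0.879, 20 high), Mrpl10 (0.855, 21 low) and Mrps30 (0.897, 19 high).

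The response to TH at 24 h differed between BATKO and WT mice by the interaction term (log2 scale, BATKO minus WT, edgeR adjusted p under 0.05) for 15 members. It was lower in BATKO for Mrpl12 (-0.86), Mrps23 (-0.85), Mrpl34 (-0.83), Mrps2 (-0.69), Mrpl38 (-0.69), Mrps27 (-0.65), Mrpl36 (-0.65), Mrps5 (-0.60), Mrpl37 (-0.55), Mrps34 (-0.49), Mrpl15 (-0.44) and Mrps30 (-0.39). It was higher for Mrpl33 (0.69), Mrps6 (0.81) and Mrps18c (1.07). Of these, Mrps27, Mrpl15, Mrpl33, Mrpl37 and Mrps34 lost the call in 10, 9, 9, 3 and 1 of 18 fits that left out 1 mouse. The response to cold differed, BATKO minus CTRL, for Mrpl54 (-1.18), Mrps23 (-0.95) and Mrps18a (-0.85), calls that were lost in 10, 11 and 11 of 16 fits that left out 1 mouse.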

How the results depend on the processing

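No paired analysis was possible because the groups compared share no mouse: numbers that recur between groups belong to different mice. Of 2965 values of named members under alternatives, 2724 kept their direction and their side of the threshold, 192 were no longer called, 39 became called and 10 changed sign. These 10 were not called and lay near 0 after the change, though not all of them before it. Among them were Mrps23 (below 0 in 6 fits leaving out a mouse, -0.0390 to 0.0967 over all) and Mrps6 (-0.00050 to 0.153) in BATKO mice after TH. Mrps18c changed sign in the cold without CTRL mouse 2 at 4 °C (-0.0028 to 0.69 over all mice left out) and without BATKO mouse 12 at 4 °C (-0.008755 to 0.45). Mrps36 did so in BATKO mice in the cold without the mice high in muscle markers (-0.0116, against 0.34 to 0.60 with 1 mouse left out).

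Leaving out 1 mouse gave 2 to 10 called members at 3 h (fewest without WT mouse B2 or B3 under PTU or B9 after TH), 14 to 25 at 6 h (fewest without B15), 0 to 19 for the cold response between genotypes, 0 to 15 between genotypes at 4 °C and 0 to 5 in CTRL mice on HFD. The median log2 fold change was then 0.89 to 1.06 in CTRL mice in the cold, lowest without mouse 1 at 4 °C, and 0.17 to 0.32 in BATKO mice on HFD, where leaving out a chow mouse left 1, assumed to vary like the other groups. Without the filter on the mean count there were 5 called members at 3 h, 4 in CTRL and 1 in BATKO mice on HFD. With DESeq2 there were 13 for the cold response between genotypes, 10 between genotypes at 4 °C, and 6 in CTRL and 1 in BATKO mice on HFD. With RLE size factors there were 2 between genotypes at 4 °C, and with only the groups compared 0 there and 0 in CTRL mice on HFD. Without the mice high in muscle markers, an alternative chosen after seeing the data, there were 15 at 6 h, 28 in BATKO mice in the cold, 0 for the cold response between genotypes (median -0.46), 0 between genotypes at 4 °C, 7 in CTRL and 1 in BATKO mice on HFD, and the median for the diet response between genotypes was 0.012. Fewer mice entered these fits, and other causes were not tested. With a mean count of 10 or more required in each experiment, Mrpl23 dropped out and 76 members were left. With 2 to 5 mice per group, small changes of single members may have been missed. The smallest called rise was 1.19-fold, in WT mice at 24 h after TH.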

Other observations

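Among the pseudogenes left out of the members, Mrps36-ps1 had 336 to 666 raw counts in the BATKO mice of the TH experiment and 140 to 709 in the other 49 mice, more than Mrps36 itself had in any of the latter (26 to 91). Mrpl23-ps1 had 278 to 350 against 236 to 581, where Mrpl23 had 0 to 13. Mrpl48-ps had a mean of 339 against 131 raw counts, where Mrpl48 had 244 against 109. How the counting divided the reads of such near-identical copies is not given in the sources used here, so the levels of Mrpl23, Mrps36 and Mrpl48 are uncertain in all 3 experiments.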
